A study of Mus musculus with 4 samples.

Results

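Pparg, Cebpa, Medag, Lepr, Fabp4, Lpl, Plin2, Apoe and Angptl4 are 9 of the 27999 genes counted in single cells of mouse back skin, taken by symbol from the gene lists of all 4 libraries. They were listed as genes of fat cell formation and lipid handling, by a rule that uses symbols and no measured value. The cells came from mice in which a tamoxifen-activated Cre recombinase driven by the smooth muscle actin promoter (α-SMACreERT2) had switched on a fluorescent reporter after treatment on postnatal days 3 and 4. All groups were on the C57BL/6J background, carried the Cre and received tamoxifen. The v2 pair of libraries came from 18-month and 2-month mice with the RosaYFP reporter, made with version 2 of the 10x Genomics 3′ chemistry. The v3 pair came from 12-month and 2-month mice with the RosaTDTomato reporter, made with version 3. Each library pooled 2 mice, and dermal cells were sorted as positive for the reporter or Cd26 and also for Itga9 or Cd200. The cells are therefore a gated sample of the dermis around the hair follicle, not its whole makeup.

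The files held 17130 cell barcodes, of which 13459 passed the filters on genes, transcripts, mitochondrial share and doublets: 2430 cells at 18 months and 1677 in its 2-month partner, and 3964 cells at 12 months and 5388 in its 2-month partner. Kept cells carried 16079277 to 69974116 unique transcript counts (UMIs) a library, with a median of 6253 to 11926 a cell. Levels are given as CPM, the UMIs of a gene summed over the cells of a class in a library and scaled to a fixed total of UMIs. There was 1 library for each age and chemistry, so a ratio of ages within a chemistry has no replicate check, and its 95% interval covers counting error only. Sex, chemistry and reporter cannot be told apart between the pairs, since Xist, the X inactivation transcript of females, stood at 0.104 CPM at 18 months against 0 at 2 months (v2), and 849 CPM at 12 months against 830 at 2 months (v3). A row for the yellow reporter had counts in all 4 libraries, also in those labelled with the red one. In the v2 pair the files held fewer barcodes than the labels give as recovered cells, with 2727 of 3776 at 18 months and 1906 of 2604 at 2 months. The 2 libraries of the v2 pair shared 7 barcodes and those of the v3 pair 11.

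Clustering without the 9 genes gave 23 clusters, which known markers placed in 9 classes. Cells resembling dermal papilla, dermal sheath, dermal fibroblasts, macrophages and dendritic cells, and keratinocytes each had at least 50 cells in every library. Pericyte-like cells were frequent in the v2 pair, with 255 cells at 18 months against 221 at 2 months (v2), and 12 cells at 12 months against 28 at 2 months (v3). Endothelium-like cells numbered 22 at 18 months against 6 at 2 months (v2), and 35 at 12 months against 100 at 2 months (v3). Markers of mature fat cells were near 0: the sum of 9 such genes was 2.19 CPM at 18 months and 1.62 CPM in its 2-month partner, while the 12-month library had 4.61 CPM and its 2-month partner 2.00 CPM. Adipoq, Cidec and Lep had no UMI in either library of the v2 pair. At 12 months they had 5, 9 and 1 UMIs, and in the 2-month v3 library 1, 3 and 0. The others of the 9 had at most 14 UMIs each in a v2 library. In the v3 pair the highest was Adig, with 104 UMIs at 12 months, of which 93 lay in keratinocyte cluster 4. No cluster was named as fat cells, and the genes described here were read in the classes above.

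In fat cell formation, Cebpa and the nuclear receptor Pparg are the central transcription factors and switch on each other and the genes of lipid storage. Fabp4 carries fatty acids inside cells, Lpl releases them from circulating lipoproteins, Angptl4 is a secreted inhibitor of Lpl, and Plin2 coats lipid droplets. Apoe carries lipid out of cells and between them, Lepr is the receptor for the fat cell hormone leptin, and Medag was named for promoting fat cell differentiation in mouse preadipocytes. In skin, fat cell precursors lie in the lower dermis, capillary endothelium uses Fabp4 and sebaceous glands depend on Pparg.

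Promoters of the 3 regulators of fat cell formation are shown because the proteins of Pparg and Cebpa are known to act on each other's gene and because Medag stood higher over all cells in both older libraries. The sequences are those of RefSeq in GRCm38.p6, 5′ to 3′, each with the 250 bases that end at the base before the start. The third of 3 annotated Pparg starts is the one with matches to the motif of C/EBP proteins, the family of Cebpa. Capitals mark matches to that motif (TTGCNNAA), to a CCAAT box or to a TATA box (TATAAA) on either strand.
Pparg, chr6:115421816-115422065, plus strand: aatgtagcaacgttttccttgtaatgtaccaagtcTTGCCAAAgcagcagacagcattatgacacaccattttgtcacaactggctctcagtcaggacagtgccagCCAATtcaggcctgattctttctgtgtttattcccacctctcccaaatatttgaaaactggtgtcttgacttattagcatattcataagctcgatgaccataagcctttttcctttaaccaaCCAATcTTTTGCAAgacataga
Cebpa, chr7:35119043-35119292, plus strand: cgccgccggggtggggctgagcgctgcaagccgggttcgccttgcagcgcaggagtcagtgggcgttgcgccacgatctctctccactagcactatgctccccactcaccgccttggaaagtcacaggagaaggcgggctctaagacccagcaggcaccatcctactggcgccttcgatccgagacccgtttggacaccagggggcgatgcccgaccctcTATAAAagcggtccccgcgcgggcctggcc
Medag, chr5:149411499-149411748, plus strand: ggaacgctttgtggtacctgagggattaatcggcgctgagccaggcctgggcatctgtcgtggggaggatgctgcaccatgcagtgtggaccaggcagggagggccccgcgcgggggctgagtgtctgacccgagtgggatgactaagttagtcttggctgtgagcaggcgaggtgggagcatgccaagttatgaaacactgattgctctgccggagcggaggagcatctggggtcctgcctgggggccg
The Pparg sequence held 2 matches to the C/EBP motif and 2 to the CCAAT box, and these matches do not overlap. The Cebpa sequence held 1 TATA box and no C/EBP match, and the Medag sequence held no match to any of the 5 motifs searched. The other motifs searched were AP-1 (TGANTCA) and the nuclear receptor half-site (AGGTCA). Of 32851 promoter sequences of this kind, 9.56% held the C/EBP motif, 33.8% the CCAAT box, 12.4% the TATA box, 6.75% the AP-1 motif and 14% the nuclear receptor half-site. Such a match describes letters and is not a binding site. The table held 6 of the 9 genes, with 12 promoter sequences.

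Of the classes with at least 50 cells in every library, dermal papilla-like cells, the signalling cluster at the base of the hair follicle, had the highest Cebpa level in each library. It stood there at 143 CPM (95% interval 129 to 157) at 18 months, against 154 (140 to 168) in the 2-month partner, and at 275 (259 to 292) at 12 months, against 293 (283 to 303) in the 2-month partner. The levels differed between chemistries, and the intervals of the ages overlapped within each chemistry. Keratinocyte-like cells followed with 94.9 CPM at 18 months against 107 at 2 months (v2), and 231 CPM at 12 months against 173 at 2 months (v3), a range that overlapped that of the papilla. Their cluster 3, of differentiated type with Krt1 and Krt10, stood at 161 CPM at 18 months, and at 318 CPM at 12 months against 243 at 2 months (v3), with an interval clear above that of the papilla class at 12 months (298 to 340) and overlapping it at 18 months (140 to 185). Macrophage and dendritic-like cells had 41.8 to 86.0 CPM, dermal fibroblast-like cells 29.3 to 36.5 CPM, and dermal sheath-like cells 19.2 to 29.5 CPM. Pericyte-like cells had 1.61 CPM at 18 months against 8.47 at 2 months (v2). A Cebpa UMI was seen in papilla-like cells with a share of 53.1% at 18 months against 48.8% at 2 months (v2), and 81.3% at 12 months against 86.0% at 2 months (v3). Cut to 2000 UMIs a cell the shares were 24.6% at 18 months against 24.9% at 2 months (v2), and 39.6% at 12 months against 43.6% at 2 months (v3). Pericyte-like cells then had a share of 0.392% at 18 months against 2.26% at 2 months (v2). Across the libraries Cebpa exceeded the mean of the other tested classes by 1.62 ± 0.16 on the log2 scale in papilla-like cells (edgeR, standard error, adjusted p = 6.49e-07) and by 1.83 ± 0.16 in keratinocyte-like cells (edgeR adjusted p = 3.15e-08).

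Pparg, the partner of Cebpa in fat cells, had instead its highest class levels in vessel cells, from few UMIs. Pericyte-like cells, which wrap capillaries, had 39.4 CPM at 18 months (49 UMIs in 255 cells) and 57.7 CPM in the 2-month partner (75 UMIs in 221 cells). Endothelium-like cells had 58.6 CPM at 18 months, 48.6 CPM at 12 months and 32.1 CPM in the 2-month v3 library, from 10, 13 and 38 UMIs. These counting intervals overlapped, so vessel classes could not be ordered. By number of UMIs the pattern differed between chemistries. Pericyte-like cells held 38.3% of the Pparg UMIs at 18 months and 58.1% in the 2-month v2 library, while the class of macrophages and dendritic cells held 46.0% at 12 months and 32.6% in the 2-month v3 library. Dermal fibroblast-like cells lay between 5.91 and 8.37 CPM, and dermal sheath-like cells between 0.213 and 0.954 CPM. Within the fibroblasts, cluster 7, which carried Ly6a, Cd34 and Mfap5, had 14.4 CPM at 18 months and 14 CPM in its 2-month partner, and 17.2 CPM both at 12 months and in its 2-month partner. In the class of macrophages and dendritic cells, here also called the immune class, it had 3.32 CPM at 18 months against 2.69 at 2 months (v2), and 18.2 CPM at 12 months against 10.0 at 2 months (v3). Dendritic cluster 1 gave 91 of the 109 Pparg UMIs of that class at 12 months and 44 of the 57 in the 2-month partner, and its own level was 26.3 CPM at 12 months against 31.6 at 2 months (v3). The class ratio of 1.82 at 12 months thus stood beside a ratio of 0.831 (0.574 to 1.22) in cluster 1, which gave 338 of 754 cells of the class at 12 months and 123 of 675 in the 2-month partner.

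In keratinocyte-like cells Pparg came from very few cells. It had 0.405 CPM at 18 months and 4.22 CPM in the 2-month partner, and 9.33 CPM at 12 months and 0.538 CPM in the 2-month partner. The 5 cells with the most Pparg UMIs held 96.3% of the class total in the 2-month v2 library and 75.0% at 12 months. Cells of cluster 4, the basal type, with at least 5 UMIs of the sebaceous gland genes Elovl3, Awat1, Awat2, Far2 and Fa2h numbered 1 at 18 months against 4 at 2 months (v2), and 11 at 12 months against 1 at 2 months (v3). Their Pparg level was 87.3 CPM at 18 months, 253 CPM at 2 months (v2), 112 CPM at 12 months and 122 CPM at 2 months (v3). In the other cells of that cluster it was 0, 6.92, 8.44 and 0.628 CPM in the same 4 libraries. The cells with sebaceous gland genes were picked by genes outside the 9 and after values had been seen. Mgst1 and Krt79, also on the list of sebaceous gland markers, were left out of that choice. At 12 months cluster 4 held 3028 of the 8266 Mgst1 UMIs and 674 of the 5356 Krt79 UMIs of the library.

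Medag was highest in the dermal fibroblast-like cells, in all 4 libraries. It stood there at 139 CPM (129 to 149) at 18 months, against 83.4 (68.2 to 101) in the 2-month partner, and at 194 (185 to 203) at 12 months, against 121 (111 to 132) in the 2-month partner. Both older libraries lay above their partners, with no overlap of the intervals within a chemistry. Dermal sheath-like cells had 19.2 CPM at 18 months against 7.63 at 2 months (v2), and 19.8 CPM at 12 months against 8.94 at 2 months (v3). Papilla-like cells stood at 0.434 to 2.36 CPM with a UMI in 0.368% to 1.52% of cells, and endothelium-like cells had no Medag UMI in 22, 35 and 100 cells. In fibroblast-like cells the share with a UMI was 58.5% at 18 months against 36.6% at 2 months (v2), and 67.2% at 12 months against 57.1% at 2 months (v3). The median depth of these cells was 7182 UMIs at 18 months against 6488.5 at 2 months (v2), and 11590 UMIs at 12 months against 12017 at 2 months (v3). In papilla-like cells it was 5781 UMIs at 18 months against 5035 at 2 months (v2), and 8018 UMIs at 12 months against 8280 at 2 months (v3). Of all Medag UMIs, fibroblast-like cells held 82.4% at 18 months against 72.9% at 2 months (v2), and 74.7% at 12 months against 60.7% at 2 months (v3). Over the libraries Medag was 5.30 ± 0.24 higher on the log2 scale in fibroblast-like cells than in the mean of the other tested classes (edgeR adjusted p = 1.17e-10) and had a log2 difference of -3.68 in papilla-like cells (edgeR adjusted p = 2.89e-06).

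All 4 fibroblast clusters carried Medag, at unequal levels. Cluster 19, with Lum, Pi16 and Cyp2f2, had 288 CPM at 12 months and 245 CPM in the 2-month partner. Cluster 22, with Clec3b and Dpp4, the gene of Cd26, had 219 CPM at 18 months against 146 at 2 months (v2), and 245 CPM at 12 months against 150 at 2 months (v3). Cluster 7 had 139 CPM at 18 months against 72.6 at 2 months (v2), and 127 CPM at 12 months against 65.6 at 2 months (v3). Cluster 12, with Coch, had 134 CPM at 18 months against 65.4 at 2 months (v2), and 95.4 CPM at 12 months. Clusters 19 and 22 were thus the higher ones in the v3 pair.

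Lepr was spread over the mesenchymal classes. Papilla-like cells had 86.6 CPM at 18 months against 80.2 at 2 months (v2), and 110 CPM at 12 months against 139 at 2 months (v3). Fibroblast-like cells had 72.3 CPM at 18 months against 102 at 2 months (v2), and 85 CPM at 12 months against 97.7 at 2 months (v3). Sheath-like cells had 45.8 CPM at 18 months against 57.7 at 2 months (v2), and 72.6 CPM at 12 months against 83.2 at 2 months (v3). The ranges of these 3 classes overlapped. Cluster 7 of the fibroblasts was the highest cluster with 143 CPM at 18 months against 166 at 2 months (v2), and 199 CPM at 12 months against 195 at 2 months (v3). Keratinocyte-like cells stood at 1.17 to 6.89 CPM, a log2 difference of -3.52 from the mean of the other tested classes (edgeR adjusted p = 9.01e-06). Dendritic cluster 1 had 23.4 CPM at 18 months and 69.7 CPM in the 2-month partner, and 12.7 CPM at 12 months and 25.2 CPM in the 2-month partner.

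Fabp4 was concentrated in vessel cells. Endothelium-like cells had 9320 CPM at 18 months, 14500 CPM at 12 months and 5560 CPM in the 2-month v3 library. Pericyte-like cells had 2960 CPM (2870 to 3060) at 18 months, 3290 CPM (3200 to 3390) in the 2-month v2 library and 3060 CPM (2810 to 3320) in the 2-month v3 library. The other classes with 50 or more cells in a library lay between 0.685 and 33.6 CPM. A Fabp4 UMI was seen in pericyte-like cells with a share of 89.0% at 18 months against 91.0% at 2 months (v2), at median depths of 4261 and 5320 UMIs in the same libraries. In keratinocyte-like cells the share was 6.80% at 18 months against 7.34% at 2 months (v2), at median depths of 12991 and 25701 UMIs in the same libraries. Keratinocytes are known mainly for the related Fabp5, so their Fabp4 shares of 4.97% to 7.34% over the 4 libraries are taken as background. Cut to 2000 UMIs a cell, the keratinocyte-like shares were 0% to 1.43%. Those of papilla-like and sheath-like cells, 0.279% to 1.79%, overlapped that range and are not read as expression. Fibroblast-like cells had 0.581% to 2.04% at that depth, which also overlapped that range. Their level of 8.74 to 18.7 CPM lay above the 3.11 to 4.46 CPM of keratinocyte-like cells in all 4 libraries. Their difference from the mean of the other tested classes, 0.86 ± 0.38 on the log2 scale, did not pass (edgeR adjusted p = 0.0937). Few fibroblast-like cells carried much of it, as 5 cells held 36.7% of these UMIs at 18 months, 60.9% at 12 months and 76.5% in the 2-month v3 library. The immune class had a Fabp4 UMI in 4.76% to 9.42% of all its cells. Of all Fabp4 UMIs, pericyte-like cells held 67.6% at 18 months against 83.1% at 2 months (v2), and 5.80% at 12 months against 7.37% at 2 months (v3). Endothelium-like cells held 83.9% at 12 months against 88.2% at 2 months (v3). The library total of Fabp4 was thus set by vessel cells that were few in the v3 pair.

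Lpl, the lipase that acts on circulating lipoproteins, was highest in dermal fibroblast-like cells, with 395 CPM at 18 months against 501 at 2 months (v2), and 269 CPM at 12 months against 430 at 2 months (v3). Pericyte-like cells followed with 184 CPM at 18 months against 195 at 2 months (v2), and 322 CPM in the 2-month v3 library. Sheath-like cells had 84.2 CPM at 18 months against 62.0 at 2 months (v2), and 94.8 CPM at 12 months against 107 at 2 months (v3). The immune class had 52.8 CPM at 18 months against 61.8 at 2 months (v2), and 149 CPM at 12 months against 254 at 2 months (v3). Keratinocyte-like cells had 2.84 to 25.5 CPM and arrector pili-like cells, the muscle of the hair, no more than 1.30 CPM in the 2-month libraries. Over the libraries the excess in fibroblast-like cells was 3.15 ± 0.33 on the log2 scale (edgeR adjusted p = 1.47e-06). Cluster 7 had 789 CPM at 18 months against 785 at 2 months (v2), and 602 CPM at 12 months against 558 at 2 months (v3), and Lpl was among the 10 genes that stood out most in that cluster, although it took no part in the clustering.

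Plin2, the lipid droplet coat protein, was present in nearly every class. Macrophage and dendritic-like cells had 61.4 CPM at 18 months against 77.9 at 2 months (v2), and 304 CPM at 12 months against 317 at 2 months (v3). In that class the difference from the mean of the other tested classes was 1.34 on the log2 scale (edgeR adjusted p = 0.0027). In the v2 pair the class was not the highest. It lay below the 72.0 CPM of sheath-like cells at 18 months and the 81.8 CPM of fibroblast-like cells at 2 months. Sheath-like cells lay between 71.1 and 89.1 CPM in all 4 libraries, papilla-like cells between 43.6 and 78.4 CPM and fibroblast-like cells between 60.3 and 147 CPM. These ranges overlapped. Keratinocyte-like cells had 19.9 CPM at 18 months against 34.6 at 2 months (v2), and 201 CPM at 12 months against 32.3 at 2 months (v3). The cluster 4 cells with sebaceous gland genes had 1050 CPM of Plin2 at 18 months, 1760 CPM at 2 months (v2), 2080 CPM at 12 months and 2940 CPM at 2 months (v3). The other cells of the cluster had 34.5, 51.9, 264 and 70.3 CPM in the same 4 libraries.

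Apoe was high in 3 unrelated classes. Macrophage and dendritic-like cells had 1530 CPM at 18 months against 849 at 2 months (v2), and 4240 CPM at 12 months against 10800 at 2 months (v3). Keratinocyte-like cells had 3210 CPM at 18 months against 1510 at 2 months (v2), and 3540 CPM at 12 months against 2300 at 2 months (v3). Papilla-like cells had 3530 CPM at 18 months against 2220 at 2 months (v2), and 1470 CPM at 12 months against 2030 at 2 months (v3). The 3 ranges overlapped. Sheath-like cells had 104 to 292 CPM, and pericyte-like cells had 75.7 CPM at 18 months against 74.7 at 2 months (v2). Within the immune class, macrophage cluster 17 had 6830 CPM at 18 months, 9160 CPM at 12 months and 14000 CPM in the 2-month v3 library. Basal keratinocyte cluster 4 stood between 6110 and 10300 CPM in all 4 libraries. An Apoe UMI was found in 29.2% and 54.0% of arrector pili-like cells of the 2-month libraries (median depths 7622 and 11601 UMIs), so a share up to that size is not read as expression. Papilla-like and keratinocyte-like cells had a UMI in 97.0% to 99.6% of cells in every library.

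Angptl4 had overlapping ranges in sheath-like, fibroblast-like and endothelium-like cells. Sheath-like cells had 89.9 CPM at 18 months against 53.9 at 2 months (v2), and 162 CPM at 12 months against 73.1 at 2 months (v3). Fibroblast-like cells had 89.6 CPM at 18 months against 69.1 at 2 months (v2), and 164 CPM at 12 months against 65.6 at 2 months (v3). Endothelium-like cells had 158 CPM at 18 months, 273 CPM at 12 months and 108 CPM in the 2-month v3 library. Papilla-like cells differed between chemistries, with 23.2 CPM at 18 months against 20.4 at 2 months (v2), and 225 CPM at 12 months against 104 at 2 months (v3). They were mostly cells of cluster 0 in the v2 pair, with 416 cells at 18 months against 524 at 2 months, and of cluster 9 in the v3 pair, with 391 cells at 12 months against 1077 at 2 months. In the 18-month v2 library cluster 9 also had 47 cells, with 66.4 CPM of Angptl4 against 16.6 CPM in cluster 0. The parts of chemistry and cluster in the class difference were not tested. The immune class was low, with 11.4 to 29.7 CPM.

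**Figure D1:**
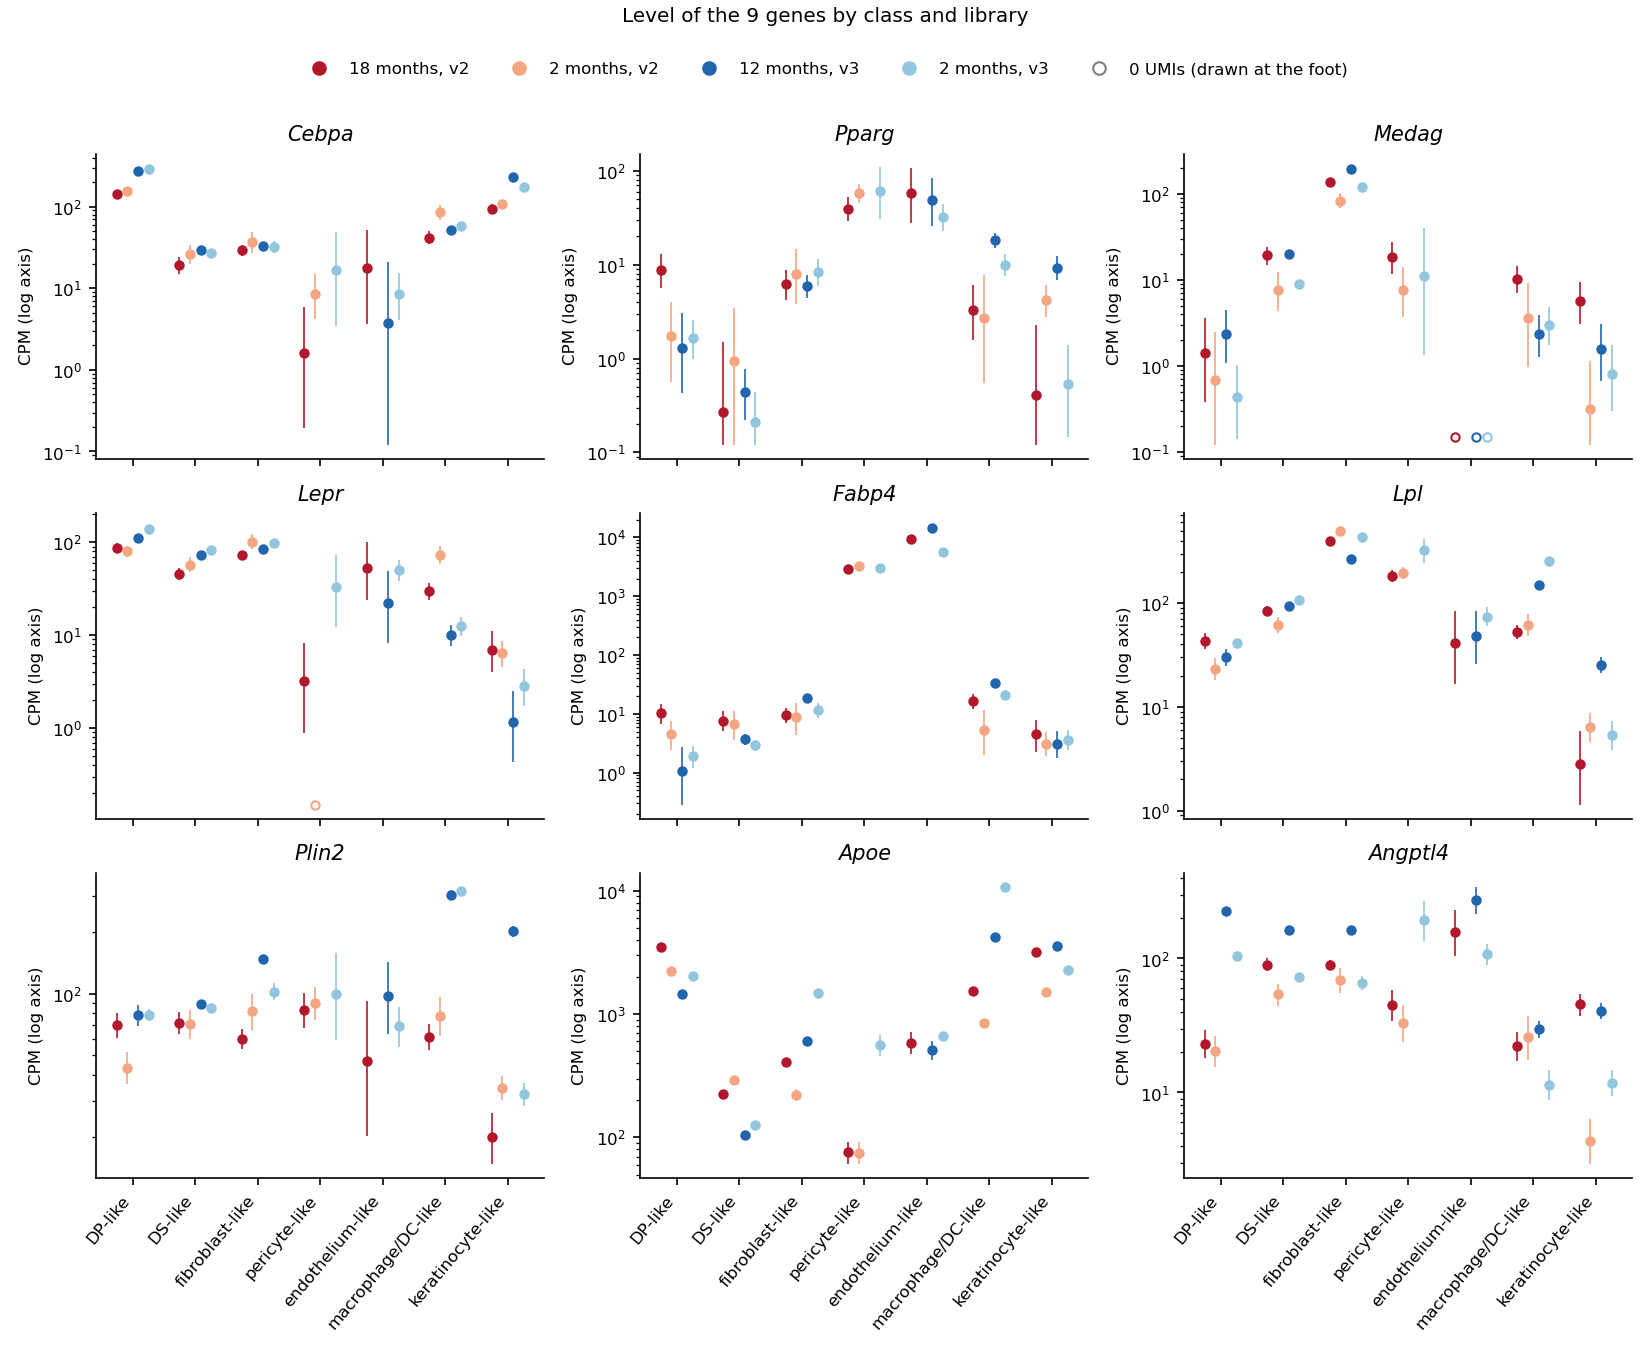
Levels of the 9 genes (CPM, log axis) in 7 cell classes, with points for the 18-month v2, 2-month v2, 12-month v3 and 2-month v3 libraries that held at least 20 cells of the class. Bars are 95% Poisson intervals and open points mark a count of 0. Fabp4 stands above 2000 CPM only in pericyte-like and endothelium-like cells, Medag stands highest in dermal fibroblast-like cells and Cebpa in dermal papilla-like and keratinocyte-like cells.

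Counted over the 5 classes with at least 50 cells in every library, 29 of the 45 combinations of gene and class passed the edgeR test against the mean of the other tested classes, beside 47.3% of all 68255 combinations of genes and classes. The classes were built from the same cells, although the 9 genes and their pathway lists were left out of the clustering. Beyond those above, Fabp4 was 2.16 higher on the log2 scale in macrophage and dendritic-like cells (edgeR adjusted p = 1.28e-04) and Pparg 2.19 higher there (edgeR adjusted p = 0.00377). Vessel cells, where both genes were highest, could not enter that test. In the v2 pair Pparg in macrophage and dendritic-like cells rested on 10 UMIs at 18 months and 3 at 2 months. Its level of 3.32 and 2.69 CPM in these libraries lay below the 6.17 and 7.94 CPM of fibroblast-like cells. Few immune cells carried much of the Fabp4. Of its UMIs in that class, 5 cells held 70.0% at 18 months, 51.7% at 12 months and 52.5% in the 2-month v3 library. The 2-month v2 library had 6 such UMIs.

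**Figure D2:**
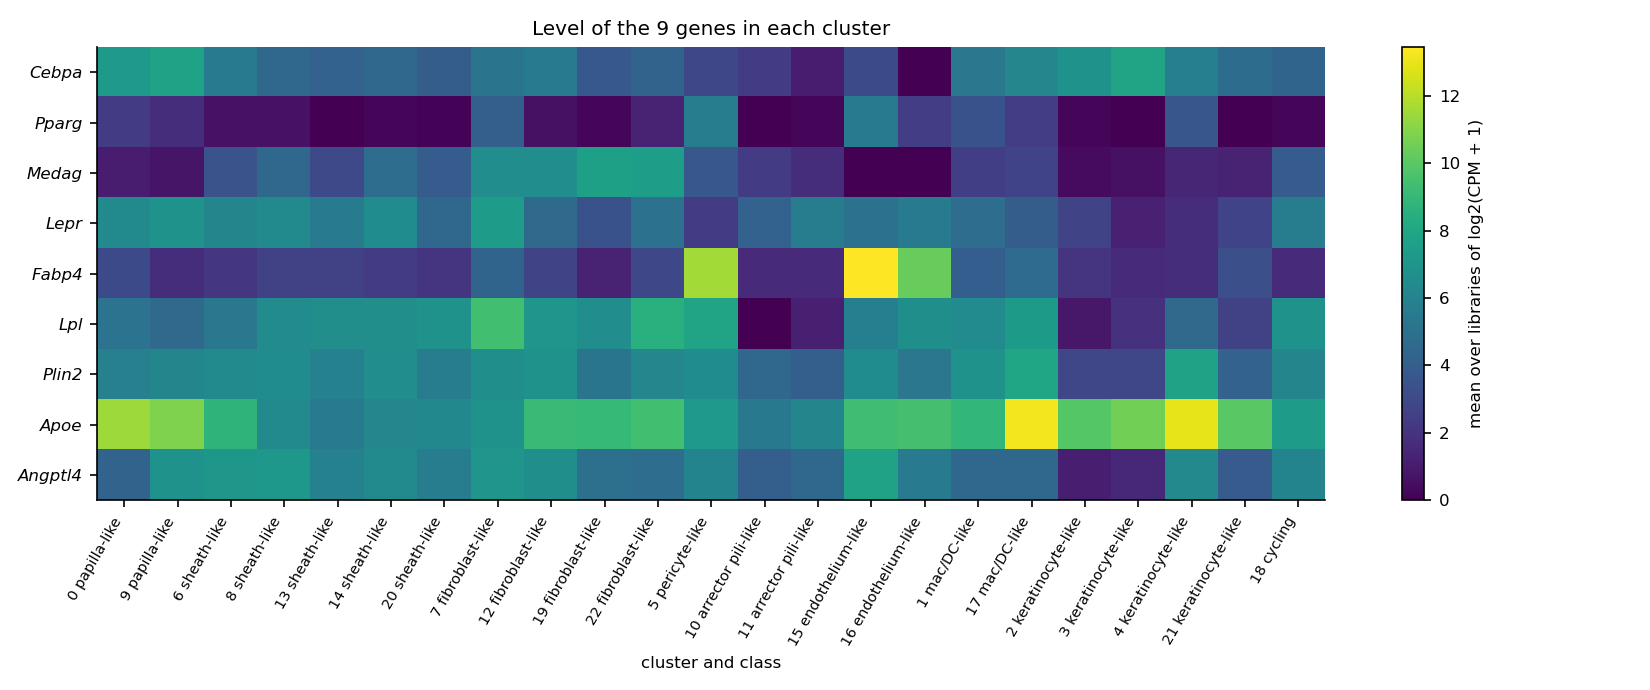
Mean log2(CPM + 1) of each of the 9 genes (rows) in the 23 clusters (columns), averaged over those libraries that held 20 or more of its cells. Medag is high in fibroblast clusters 7, 12, 19 and 22, Lpl peaks in cluster 7, and Fabp4 in vessel clusters 5 and 15.

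Medag was higher in both older libraries. Summed over all cells it stood at 45.6 CPM at 18 months, against 8.96 in the 2-month partner, a ratio of 5.09 (4.27 to 6.12). At 12 months it stood at 44.3 CPM, against 12.6 in the 2-month partner, a ratio of 3.51 (3.24 to 3.80). In sums over all cells, more fibroblasts and more Medag per fibroblast cannot be told apart, and fibroblast-like cells made up a share of the kept cells of 27.8% at 18 months against 10.3% at 2 months (v2), and 17.5% at 12 months against 6.70% at 2 months (v3). Within fibroblast-like cells the ratios were smaller, 1.67 (1.36 to 2.06) for 18 months and 1.60 (1.45 to 1.76) for 12 months. Sheath-like cells had ratios of 2.52 (1.45 to 4.64) at 18 months and 2.21 (1.91 to 2.56) at 12 months. Cluster 7, which was present in all 4 libraries, had ratios of 1.91 (1.42 to 2.62) at 18 months and 1.94 (1.58 to 2.39) at 12 months. The Dpp4-bearing cluster 22 had 1.5 (0.845 to 2.72) at 18 months and 1.63 (1.22 to 2.15) at 12 months. Cluster 19 had 1.18 (0.969 to 1.44) at 12 months, an interval that includes 1. Cut to 2000 UMIs, 25.9% of fibroblast-like cells at 18 months and 14% in the 2-month partner had a Medag UMI, as did 27.3% at 12 months and 19.9% in the 2-month partner.

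In the edgeR test of older against 2-month libraries with chemistry as a term, Medag rose in sheath-like cells by 1.23 ± 0.19 on the log2 scale (edgeR adjusted p = 0.0101, higher in 2 of 2 pairs), where 1.11% of 12747 genes passed. That test has 1 residual degree of freedom from the samples and takes most of its estimate of spread from other genes, so its p-values depend on that loan. Over all cells the difference was 2.07 ± 0.17 (edgeR adjusted p = 0.13) and in fibroblast-like cells 0.75 ± 0.14 (edgeR adjusted p = 0.118), which did not pass. DESeq2 passed Medag over all cells (adjusted p = 6.09e-09) and not in sheath-like cells (adjusted p = 0.127). In a fit of single clusters added after the data had been seen, Medag rose in cluster 7 by 0.93 ± 0.16 (edgeR adjusted p = 1.38e-04), where 1.86% of 9657 genes passed. The sheath-like class was filled by different clusters at each age. Cluster 8 gave 864 cells at 12 months and 17 in the 2-month partner, cluster 14 gave 13 cells at 12 months and 1121 in the 2-month partner, and cluster 13 gave 211 cells at 18 months and 93 in the 2-month partner. Medag in cluster 14 was 71.2 CPM at 18 months, where it had 70 cells, and 9.61 CPM in the 2-month v3 library. Within clusters the ratio was 1.85 (0.614 to 7.46) in cluster 13 at 18 months and 2.30 (1.77 to 2.99) in cluster 20 at 12 months. In sheath cluster 6, the sheath cluster with more than 100 cells in every library, Medag had 0.95 ± 0.36 and did not pass (edgeR adjusted p = 0.199). In sheath-like cells 14 markers of lower dermis fibroblasts summed to 4780 CPM at 18 months against 3560 at 2 months (v2), and 3350 CPM at 12 months against 3090 at 2 months (v3). In cluster 7 they summed to 15300 CPM at 18 months against 11700 at 2 months (v2), and 11800 CPM at 12 months against 10200 at 2 months (v3). They were higher in the older library of each pair, and their part in the Medag difference was not tested.

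Angptl4 was likewise higher in both older libraries over all cells, with 60.2 CPM at 18 months, against 23.7 in the 2-month partner, and 139 CPM at 12 months, against 63.1 in the 2-month partner. The ratios were 2.54 (2.26 to 2.86) for 18 months and 2.21 (2.13 to 2.29) for 12 months. At 12 months the interval lay above 1 in 7 of 7 classes, with ratios from 2.16 (1.98 to 2.36) in papilla-like cells to 3.42 (2.65 to 4.44) in keratinocyte-like cells. At 18 months it did so in 4 of 7 classes. Sheath-like cells had 1.67 (1.34 to 2.08), fibroblast-like cells 1.30 (1.03 to 1.65) and keratinocyte-like cells 10.4 (6.80 to 16.3). The keratinocyte value came with a change of clusters, since cluster 2 gave 2 of 147 cells at 18 months and 216 of 259 in the 2-month partner. Cluster 4 held 107 of the 112 Angptl4 UMIs of the class at 18 months, and its own ratio was 2.77 (1.72 to 4.65). Papilla-like cells had 1.14 (0.789 to 1.65), with 0.819 (0.535 to 1.24) in their cluster 0 alone, and the immune class 0.857 (0.547 to 1.37) at 18 months, and these intervals include 1. The median log2 ratio of all genes moves such values in some classes: it was 0.121 and -0.108 over all cells, 0.433 and -0.029 in keratinocyte-like cells and -0.28 and -0.301 in the immune class at 18 and 12 months, and within 0.1 of 0 in the other classes. Cluster 12 of the fibroblasts went the other way at 18 months with a ratio of 0.486 (0.311 to 0.793).

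Angptl4 rose in sheath-like cells by 1.02 ± 0.15 on the log2 scale (edgeR adjusted p = 0.00753, higher in 2 of 2 pairs), a class with the change of clusters given above. Its level was 144 CPM in cluster 8 at 12 months and 65.5 CPM in cluster 14 of the 2-month partner. In cluster 13 the ratio was 1.10 (0.775 to 1.58) at 18 months, an interval that includes 1, and in cluster 20 it was 2.94 (2.62 to 3.31) at 12 months. It rose in papilla-like cells by 0.84 ± 0.21 (edgeR adjusted p = 0.00348), where 3.21% of 11419 genes passed. The papilla value rests on the v3 pair, since the difference was 0.17 without either library of that pair and 1.2 without either library of the v2 pair, and DESeq2 did not pass it (adjusted p = 0.848). In the added cluster fits Angptl4 rose in sheath cluster 6 by 1.10 ± 0.18 (edgeR adjusted p = 1.17e-07), where 2.61% of genes passed, and in fibroblast cluster 7 by 0.98 ± 0.15 (edgeR adjusted p = 2.79e-05). Both clusters had at least 92 cells in every library. A list of 14 immediate-early and heat-shock genes, which respond to cell dissociation, summed in sheath-like cells to 5890 CPM at 18 months against 4680 at 2 months (v2), and 10200 CPM at 12 months against 5370 at 2 months (v3). In papilla-like cells the sum was 9010 CPM at 18 months against 2390 at 2 months (v2), and 30700 CPM at 12 months against 24200 at 2 months (v3). In cluster 6 it was 12500 CPM at 18 months against 6640 at 2 months (v2), and 23300 CPM at 12 months against 18400 at 2 months (v3), and in cluster 7 it was 5690 CPM at 18 months against 3270 at 2 months (v2), and 8600 CPM at 12 months against 3910 at 2 months (v3). It was higher in the older library of each pair in all of these, and lower in both older libraries in keratinocyte-like cells. The sums were 9560 CPM at 18 months against 10800 at 2 months (v2), and 8390 at 12 months against 8860 at 2 months (v3). In the v3 pair it was also lower in the immune class, with 10200 CPM at 12 months against 12800 at 2 months. At 18 months that class had 11400 CPM against 8570 at 2 months (v2). Endothelium-like cells had 19400 CPM at 12 months against 21900 at 2 months (v3). The part of this list in the Angptl4 difference was not tested.

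**Figure D3:**
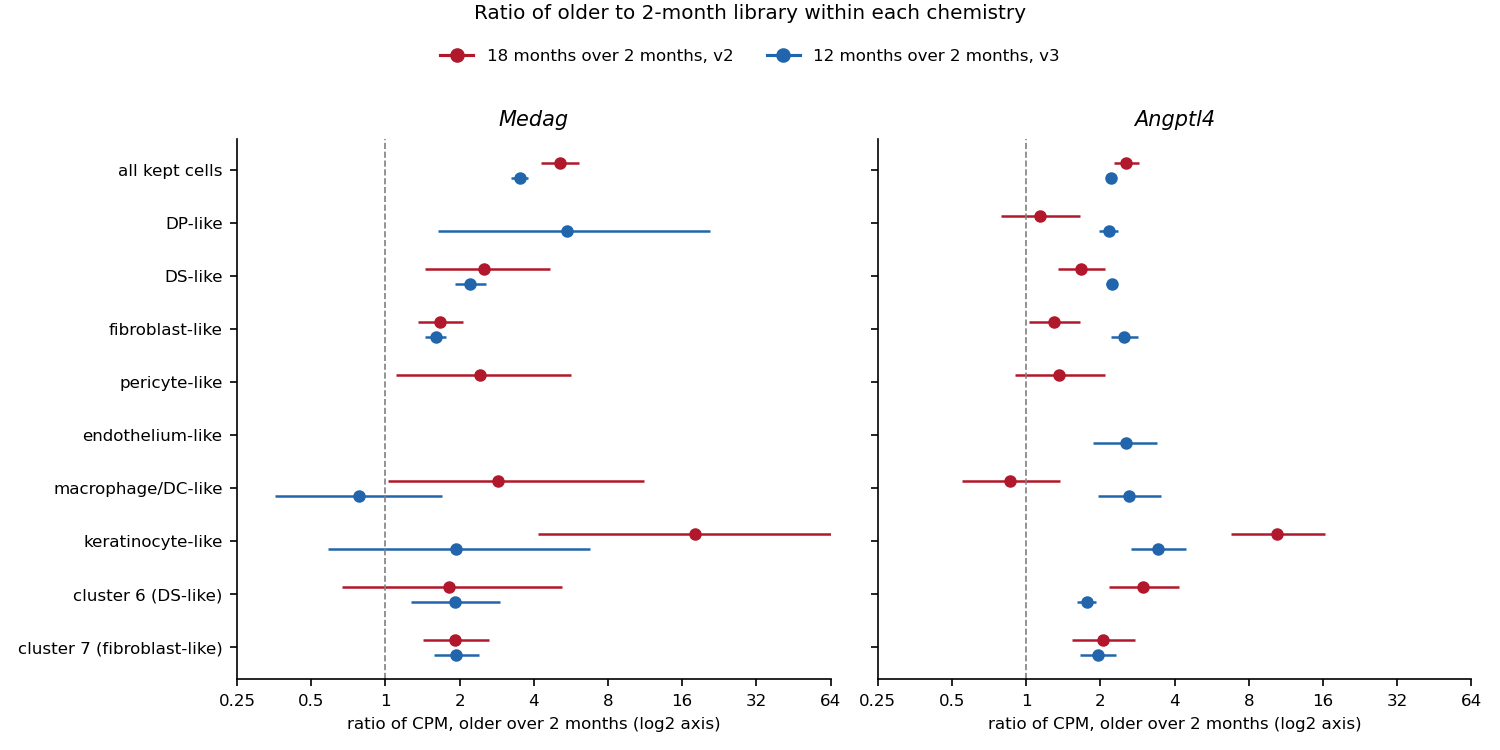
Ratio of the older to the 2-month library of the same chemistry for Medag and Angptl4 (log2 axis) in all cells, 7 classes and clusters 6 and 7, where the pair had at least 10 UMIs. Bars are 95% counting intervals, one of which runs past the edge, and the ratio of Medag in cluster 7 is 1.91 in the v2 pair and 1.94 in the v3 pair.

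Of the 9 genes, 3 combinations of gene and class passed the age test in the 5 classes: Angptl4 in papilla-like cells (1 of 7 genes tested), and Angptl4 and Medag in sheath-like cells (2 of 8 tested). None of 9 passed in fibroblast-like cells, where 0.345% of all genes did, none of 9 in macrophage and dendritic-like cells (0.121%), none of 8 in keratinocyte-like cells (0%) and none of 9 over all cells (0%, with 1721 of 15454 genes at an unadjusted p under 0.05 and 380 passing in DESeq2). Pparg and Medag in papilla-like cells, Pparg in sheath-like cells and Medag in keratinocyte-like cells were below the filter on low counts. The median log2 difference of the tested genes was 0.10 in sheath-like cells, 0.19 in papilla-like cells, -0.07 in fibroblast-like cells and 0.33 over all cells, beside -0.01 to 0.00 for all genes. A change of at least 1.5-fold in the same direction in both pairs was met upward by Medag and Angptl4 over all cells (2 of 9, against 3.9% of genes) and in sheath-like cells (2 of 8, against 1.3%). It was met by Medag in fibroblast-like cells (1 of 9, against 2.51%), by Fabp4 in macrophage and dendritic-like cells (1 of 8, against 2.3%), by Angptl4 and Apoe in keratinocyte-like cells (2 of 8, against 4.36%) and by none of 8 in papilla-like cells (1.9%). None of the genes met it downward in these classes or over all cells. In cycling cells, with 33 to 63 cells a library, Angptl4 met it upward and Lepr downward (1 of 5 genes each). The share of all genes in that class is not given here. In keratinocyte cluster 4 alone the ratio of Apoe was 0.805 (0.773 to 0.838) at 18 months and 1.28 (1.24 to 1.31) at 12 months, so the class value of 2.12 at 18 months did not hold within it.

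Some ratios of the ages lay close to 1. Cebpa in papilla-like cells had ratios of 0.931 (0.811 to 1.07) at 18 months and 0.940 (0.877 to 1.01) at 12 months. Lpl in cluster 7 had 1.01 (0.912 to 1.11) at 18 months and 1.08 (0.998 to 1.17) at 12 months. Plin2 in sheath-like cells, which were not its highest class, had 1.01 (0.826 to 1.25) at 18 months and 1.04 (0.986 to 1.10) at 12 months. An interval that includes 1 does not show that the ages were equal.

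The class value of Lpl depended on which clusters filled the class. The border between sheath-like and fibroblast-like cells itself moved with the clustering: the 2-month v2 library had 172 fibroblast-like cells, 419 without the removal of doublets and 323 at a finer clustering. In fibroblast-like cells the ratio of Lpl was 0.788 (0.721 to 0.863) at 18 months and 0.627 (0.590 to 0.667) at 12 months. The 18-month ratio was 1.61 with doublets kept and 1.30 at the finer clustering. Cluster 12, with 132 CPM of Lpl at 18 months and 115 CPM in the 2-month partner, gave 406 of the 675 fibroblast-like cells at 18 months and 37 of 172 in the 2-month partner. Cluster 19, with 98.3 CPM at 12 months and 98.8 CPM in the 2-month partner, gave 316 of 693 cells at 12 months and 45 of 361 in the 2-month partner. Cluster 7 gave 236 of these cells at 18 months against 92 at 2 months (v2), and 187 of these cells at 12 months against 142 at 2 months (v3).

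Cebpa and Lepr were lower in dendritic cluster 1 in both older libraries, with ratios of 0.493 (0.353 to 0.690) and 0.435 (0.313 to 0.604) for Cebpa at 18 and 12 months, and of 0.336 and 0.505 for Lepr. In the added fit of that cluster neither passed, with log2 differences of -0.81 (edgeR adjusted p = 0.106) and -0.99 (edgeR adjusted p = 0.0881), and none of the 9 genes did, where 2.35% of genes passed. Fabp4 in endothelium-like cells stood at 14500 CPM at 12 months, against 5560 CPM in the 2-month partner, a ratio of 2.61 (2.50 to 2.71) from 35 cells at 12 months and 100 in the 2-month partner. A few cells carried much of it, as 5 cells held 65.2% of these UMIs at 12 months and 32.3% in the 2-month partner, which the counting interval does not cover. In pericyte-like cells of the v2 pair the ratio of Fabp4 was 0.900 (0.861 to 0.940). Fabp4 in macrophage and dendritic-like cells had ratios of 3.09 (1.32 to 8.82) at 18 months and 1.59 (1.26 to 2.01) at 12 months (edgeR adjusted p = 0.145), at 33.6 CPM or less.

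**Figure D4:**
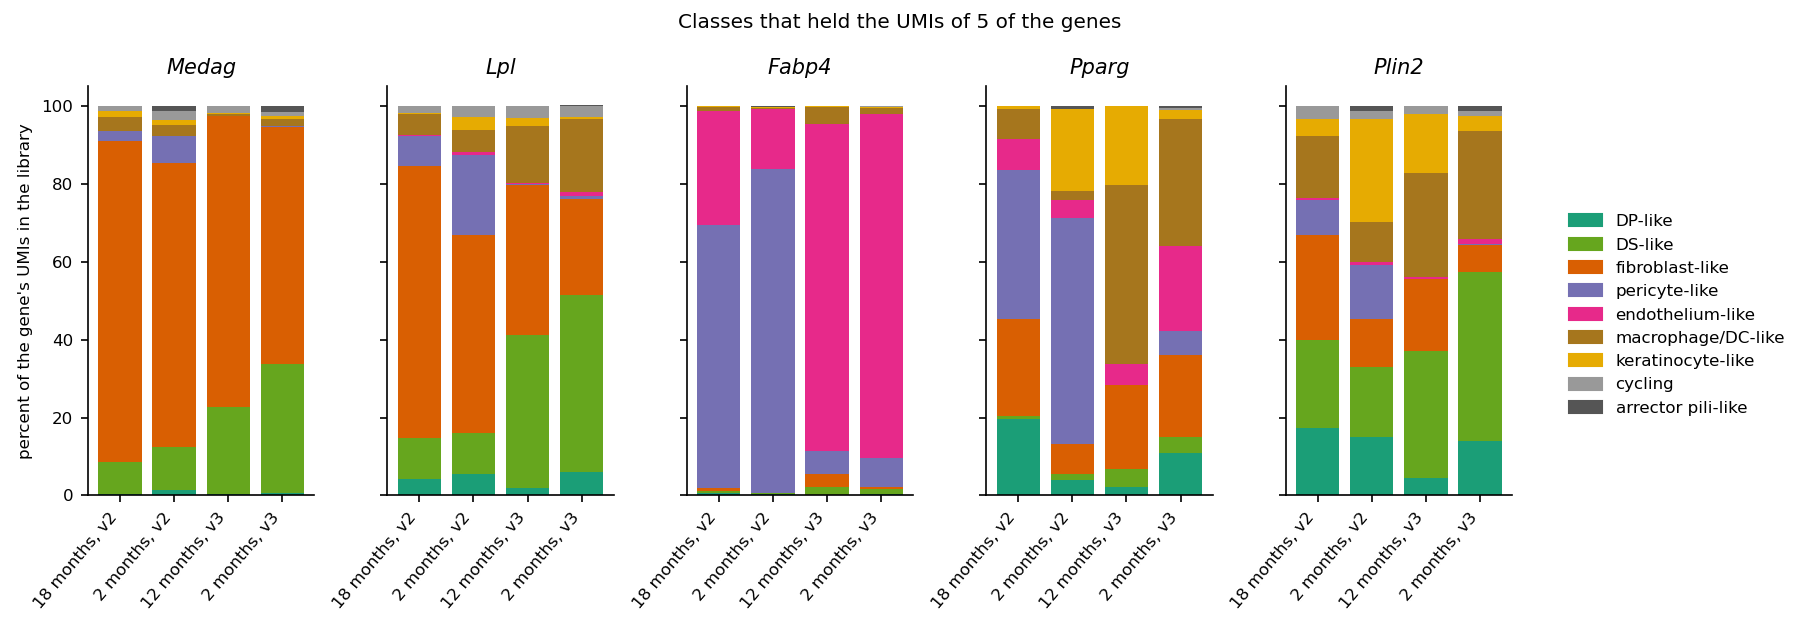
Share of the UMIs of Medag, Lpl, Fabp4, Pparg and Plin2 (percent of the library's total for the gene) held by each cell class, with stacked bars for the 18-month v2, 2-month v2, 12-month v3 and 2-month v3 libraries. Fibroblast-like cells hold 82.4% of Medag at 18 months and 72.9% in its 2-month partner, and the share of Fabp4 in pericyte-like cells is 67.6% at 18 months against 83.1% at 2 months (v2), and 5.80% at 12 months against 7.37% at 2 months (v3).

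The related pathways were read with 11 lists. In papilla-like cells 9 of the 115 tested entries passed the age test (8 higher, 1 lower), beside 3.21% of all genes. Of the inhibitors of fat cell formation 1 of 7 tested rose, Klf2 by 2.49 ± 0.23 on the log2 scale (edgeR adjusted p = 2.78e-17), and the list median was 0.26. Of its activators 3 of 15 rose: Klf4 by 0.99, Klf5 by 1.07 and Klf9 by 0.72, with a list median of 0.06. Klf2 and Klf4 are also known as rapidly induced genes, and so is Socs3, the feedback inhibitor of leptin and cytokine receptors, which rose by 1.62 (edgeR adjusted p = 2.64e-12, 1 of 10 tested in the leptin list, median 0.24). Of the cholesterol synthesis genes 2 of 18 rose, Insig1 by 0.67 and Msmo1 by 0.59, and 1 fell, Mvk with -0.78. The median of that list was 0.00. Of the apolipoprotein and cholesterol efflux genes 1 of 14 rose, Ch25h by 2.21 (edgeR adjusted p = 1.93e-04), an enzyme that makes an oxysterol, and the list median was 0.12. The mean level of Ch25h in this class was below 10 CPM.

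In sheath-like cells 6 of the 125 tested entries passed (5 higher, 1 lower), beside 1.11% of all genes. Klf2 rose by 1.33 and Wisp2, a secreted inhibitor of fat cell commitment, by 1.29, which made 2 of the 9 inhibitors tested with a list median of 0.19. Socs3 rose by 1.65 and Rarres2, the gene of the adipokine chemerin, by 0.99, 2 of 10 tested with a list median of 0.13. Of the genes of fatty acid uptake and binding 1 of 15 fell, Fabp7 with -4.48 (edgeR adjusted p = 0.0336). Fabp7 and Wisp2 had a mean level below 10 CPM in this class, whose clusters changed between the ages as given above. The medians of all genes were -0.01 in papilla-like and 0.00 in sheath-like cells.

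In fibroblast-like cells none of the 121 tested entries of the 11 lists passed, and the same held over all cells (147 tested), in the keratinocyte-like class (112) and in the immune class (113). The largest differences in fibroblast-like cells were those of Slc27a6, a fatty acid transporter gene, with 2.06 ± 0.38 (edgeR adjusted p = 0.118), and Ebf2, a regulator of brown fat precursors, with -1.81 ± 0.51 (edgeR adjusted p = 0.267). Rarres2 had 1.12 ± 0.16 (edgeR adjusted p = 0.0741). The leading differences of other lists were -1.02 for Clu and -0.64 for Mgll, an enzyme of lipolysis, 0.82 for Angptl1, 0.66 for Lpin1, -0.60 for Nr2f2 and 0.58 for Idi1. Of 18 cholesterol synthesis genes 16 were above 0 there, with a median of 0.23 and no gene passing. Of 12 mature fat cell genes 1 was high enough to be tested in that class.

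The genes whose pattern over the 27 sums of a class in a library came nearest to each of the 9 were listed as a description, by Pearson's r of log2(CPM + 1) over 6577 genes. The sums share libraries and depth, and no test goes with these values. For Medag they were Lum with 0.915, Thbs2 with 0.885 and Dcn with 0.884, all genes of the collagen matrix, and for Lpl Anxa5 with 0.897, Il3ra with 0.873 and Myof with 0.872. For Fabp4 they were Esam with 0.931, Scn3a with 0.926 and Rem1 with 0.914, and for Pparg Procr with 0.862, Cd36 with 0.855 and Rem1 with 0.819. For Cebpa they were Pgap2 and Fam134b with 0.886 each and Crabp2 with 0.859, and for Lepr Robo2 with 0.912, Tspan11 with 0.907 and Lpar1 with 0.887. For Apoe they were Vav3 with 0.900, Sema4a with 0.852 and Plk2 with 0.841. For Angptl4 they were Wwc2 with 0.818, Lsm14a with 0.815 and Irf2bpl with 0.806, and for Plin2 Usf2 with 0.770, Clta with 0.756 and Psme1 with 0.746. Among the 9 genes themselves r was 0.82 for Pparg and Fabp4, 0.78 for Cebpa and Apoe, 0.74 for Plin2 and Lpl, 0.60 for Medag and Lpl and -0.19 for Pparg and Cebpa. In single cells of cluster 7, cut to 2000 UMIs, Lpl and Medag were seen together in a share of 14.4% at 18 months against 10.9% at 2 months (v2), and 15.5% at 12 months against 7.75% at 2 months (v3). The product of their separate shares was 12.5% at 18 months against 8.51% at 2 months (v2), and 9.89% at 12 months against 6.69% at 2 months (v3).

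Positions are those of GRCm38. Pparg (ENSMUSG00000000440) lies at chr6:115360951-115490399, Cebpa (ENSMUSG00000034957) at chr7:35119293-35121928 and Medag (ENSMUSG00000029659) at chr5:149411749-149431723, all on the plus strand. Lepr (ENSMUSG00000057722) lies at chr4:101717404-101815352 and Lpl (ENSMUSG00000015568) at chr8:68880491-68907448, both on the plus strand. Fabp4 (ENSMUSG00000062515) at chr3:10204088-10208576, Plin2 (ENSMUSG00000028494) at chr4:86648386-86670060, Apoe (ENSMUSG00000002985) at chr7:19696109-19699188 and Angptl4 (ENSMUSG00000002289) at chr17:33773750-33781830 lie on the minus strand. Antisense genes that were also counted overlap Pparg (Gm44079), Cebpa (Gm45091) and Medag (Gm43151 and Gm43150), and whether strand was used in counting is not given in the sources used here.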

How the data were processed

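The deposited files hold raw UMI counts per gene and cell barcode for 4 libraries (10x Genomics 3′ chemistry, versions 2 and 3). Per the submitters' processing notes, the authors used Cell Ranger 2.0.1, STAR and Seurat 2.1.0 with mm10 and GRCm38.p5, and a software version of 3.0.1 stands in the header of the v3 matrices. All further steps were computed here.

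Barcodes were kept that had 500 or more genes, 1000 or more UMIs and a mitochondrial share below 10%, and the 3% with the highest Scrublet doublet scores in each library left out, the rate the study's design text gives (the caller's own threshold marked 10 cells at 18 months and 9 in its 2-month partner, and 2 at 12 months and 5 in its 2-month partner). Clustering used scanpy 1.11.5 on 2000 variable genes without the 9 genes and the pathway lists, 30 components, 15 neighbours and Leiden resolution 0.5. A class needed at least 3 markers among the 100 leading genes of a cluster. The members, marker lists and pathway lists were chosen with earlier results of these data known. UMIs were summed per class and library and given as CPM with exact Poisson intervals (95%). Age ratios within a chemistry carry exact conditional intervals, and all intervals and floors (3 UMIs) cover counting error only. Shares were also computed after thinning each cell to 2000 UMIs, without shallower cells.

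The age test compared the 18- and 12-month sums with the 2-month sums, with chemistry as a term, in edgeR 4.0.16 (quasi-likelihood, R 4.3.3), with Benjamini-Hochberg adjustment over all genes tested at a threshold of 0.05. The standard error is the log2 difference divided by the root of F. The class test used the library as a block. DESeq2 1.42.0 was an alternative. The scripts were tested on simulated data. Besides the 9 genes, list members were named where they passed the age test in a class, and the largest differences are named for fibroblast-like cells only, out of the classes without a passing list member. A list member that met this rule is not reported here. For each of the 9, the 3 genes with the nearest pattern among genes reaching 50 CPM in a sum are named. Labels do not say that the pooled mice were kept apart, so the library is the unit of all p-values. In the class test they measure the spread over libraries that differ in age and chemistry. No libraries share both age and chemistry, so in the age test the spread is how far the v2 and v3 pairs differ. Those pairs also differ in older age, sex, reporter and chemistry, and most of the estimate of spread comes from other genes.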

Additional observations from a re-analysis of the deposited data

Results flagged for a closer look

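In 11 cases the ratio of the older to the 2-month library lay on opposite sides of 1 in the v2 and v3 pairs, with both intervals clear of 1. The share of all genes that meet this rule was not computed, so the count is not read as particular to these genes. The intervals cover counting error only. The difference between the pairs was not tested, since each has 1 library an age, and age, chemistry and sex differ together between them. Apoe had a ratio of 1.2 at 18 months and 0.698 at 12 months over all cells, and the ratios at 18 and 12 months were 1.85 and 0.41 in dermal fibroblast-like cells, 1.59 and 0.724 in dermal papilla-like cells, and 1.81 and 0.394 in macrophage and dendritic-like cells. In the v3 pair that class changed its clusters, since macrophage cluster 17 gave 416 of 754 cells at 12 months and 552 of 675 in its 2-month partner, and within clusters the ratio of Apoe at 12 months was 0.766 in cluster 1 and 0.656 in cluster 17. In fibroblast-like cells 13 macrophage markers summed to 119 CPM at 18 months and 116 CPM in its 2-month partner, and to 92.9 CPM at 12 months and 2920 CPM in its 2-month partner, and the part of those cells in the Apoe ratio was not tested. Most of that sum lay in cluster 22, with 6720 CPM of these markers and 3070 CPM of Apoe in the 2-month v3 library, where the cluster had 164 cells. Lepr had 1.19 at 18 months and 0.814 at 12 months over all cells. Within classes its ratio did not reverse in this way. The interval lay above 1 in 0 of 7 classes in either pair, and below 1 in 3 of 7 at 18 months and 4 of 7 at 12 months. At 18 and 12 months, in that order, Lpl had 1.88 and 0.733 in papilla-like cells, 1.36 and 0.889 in dermal sheath-like cells, and 0.442 and 4.73 in keratinocyte-like cells. Plin2 likewise had 0.737 and 1.44 in fibroblast-like cells and 0.574 and 6.24 in keratinocyte-like cells. Pparg likewise had 0.0959 and 17.3 in keratinocyte-like cells, where it rests on 1 UMI at 18 months against 27 at 2 months (v2), and 48 UMIs at 12 months against 4 at 2 months (v3). In that class the cells with sebaceous gland genes in cluster 4 numbered 1 at 18 months and 4 in its 2-month partner, and 11 at 12 months and 1 in its 2-month partner. Of the ratios in this section, 2 changed direction when doublets were kept and at the finer clustering, as given below. These were Apoe at 12 months in fibroblast-like cells and Lpl at 18 months in sheath-like cells.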

How the results depend on the processing

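Chemistry, which pairs each older library with a 2-month one, is a term of the age test. No paired analysis was possible by replicate number because the ages share fewer than 2 such numbers. The number of genes passing the age test depended on the setting. Over all cells it was 0, with 380 in DESeq2 and 82 without the filter on low counts. In fibroblast-like cells it was 40, with 109 in DESeq2, 364 without the filter, 0 without the chemistry term, 0 with 12 months grouped as young, as in the design text, 1 at Leiden resolution 1 and 8 without doublet removal. In papilla-like cells it was 367, with 63 in DESeq2, 0 without chemistry and 12 with 12 months as young. In sheath-like cells it was 142, with 93 in DESeq2, 439 without the filter, 0 without chemistry, 0 with 12 months as young and 377 at resolution 1. In keratinocyte-like cells it was 0, with 16 in DESeq2, 182 without the filter and 42 with 12 months as young. In macrophage and dendritic-like cells it was 14, with 103 in DESeq2, 596 without the filter, 0 without chemistry, 0 with 12 months as young, 208 at resolution 1, 145 without doublet removal and 153 with at least 1000 genes a cell. With doublets kept the sheath-like class had 20 cells in the 2-month v2 library and got no age test. The causes were not tested.

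The age difference of Medag in sheath-like cells stayed above 0 under every setting that gave a value (1.19 to 1.36 with a library left out). It did not pass without chemistry or with 12 months as young, nor in DESeq2. Angptl4 in sheath-like cells passed in DESeq2 (adjusted p = 0.00185), did not pass without chemistry or with 12 months as young, and gave 0.76 to 1.2 with a library left out. Without the filter on low counts Medag also passed over all cells and in fibroblast-like cells. Of the pair ratios 10 changed direction when doublets were kept or at resolution 1: Apoe at 12 months in fibroblast-like cells (1.29 and 1.69), Apoe at 18 months in sheath-like cells (2.55 and 2.37), Lepr at 12 months in sheath-like cells (1.39 and 1.19), Lpl at 18 months in fibroblast-like cells (1.61 and 1.30) and in sheath-like cells (0.886 and 0.849). Of the class differences, Plin2 in fibroblast-like cells was near 0 and turned to 0.01 in DESeq2 and without the filter, 0.04 at resolution 1 and -0.06 to 0.16 with a library left out. With a library left out, Angptl4 in papilla-like cells gave -0.14 to 0.82, Cebpa in macrophage and dendritic-like cells -0.27 to 0.03, Plin2 in sheath-like cells -0.31 to 0.11, Pparg in papilla-like cells -1.4 to 0.15 and Pparg in keratinocyte-like cells -0.05 to 1.08. The 29 passing combinations of gene and class were 30 in DESeq2 and 25 with chemistry in place of the library, and 21 to 31 with a library left out. Thinning to 5000 UMIs in place of 2000 moved 27 of 29 shares. Pparg rested on 128 to 237 UMIs a library, and endothelium-like cells, 6 to 100 a library, entered no test.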
